A study of Homo sapiens with 20 samples.

Results

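Untreated U2-OS cells were the starting state of this study of the DNA damage response, and their transcriptome is described here from the 5 RNA-seq libraries labelled as untreated, out of 20 libraries in all. U2-OS is an established human osteosarcoma line that is adherent and was grown in DMEM with 10% FCS. The other 3 groups, of 5 libraries each, were U2-OS cells 90 min after 20 Gy of ionizing radiation (90 min post-IR), U2-OS cells 7 days after the same 20 Gy (7 days post-IR) and non-irradiated cells in which an shRNA depleted NFKBIA, the gene of the NF-κB inhibitor IκBα. The untreated cells were neither irradiated nor depleted, and their labels name no control shRNA, so the knockdown is compared with cells that are not labelled as carrying a vector. The paper describes its inducible shRNA lines as clonally selected with puromycin and treated with doxycycline. All 20 libraries come from 1 cell line, and the study calls its replicates biological, while the labels do not say how the cultures were separated. The p-values below measure the spread between these libraries. All 20314 genes of the deposited count table were read in the 5 untreated libraries.

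Osteosarcoma is a bone-forming tumour, and its cells are held to come from the mesenchymal lineage that also gives osteoblasts, chondrocytes and fibroblasts. Identity in that lineage is carried by transcription factors such as RUNX2 and SP7 and by matrix genes such as those of type I collagen, and the position of the tissue along the body is recorded in the HOX clusters. U2-OS is widely used in work on DNA damage because its p53 responds to damage, and it is a textbook example of a tumour line that maintains its telomeres by recombination rather than by telomerase.

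A level is given below as the count of a gene divided by its length in the table and scaled so that the levels of all genes in a library sum to 1000000 (TPM), which allows genes to be compared with each other within a library. Means are given ± SD over the 5 libraries of a group. Untreated libraries held 22535659 to 40390961 counts, with a median of 34139124, and between 16163 and 16831 genes had at least 1 count in each. The shallowest was untreated replicate 5, which was also the only untreated library sequenced on lane 3, where 3 of the 90 min libraries were sequenced too, while untreated replicates 1 to 4 shared lane 2. Replicate 5 stood apart from the others. Across 13002 genes, the correlation of log2 CPM (counts scaled to the same library size) between pairs of untreated libraries ran from 0.950 to 0.996 (Pearson's r across genes, which are not independent replicates), and from 0.981 to 0.996 among replicates 1 to 4. Counts of variable genes and comparisons between groups are therefore also given without it. NFKBIA itself was at a level of 54.4 ± 10.9 (SD, n = 5) in untreated cells and of 22.3 ± 1.15 (SD, n = 5) in the knockdown. In bulk RNA, fewer cells expressing a gene and less of its RNA per cell cannot be told apart.

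Of the 20314 genes, 13196 (65.0%) were expressed, meaning at a level of at least 1 in each of the 5 untreated libraries. Another 2563 genes had 0 counts in all 5 and are called undetected, and 4555 lay between. Without replicate 5 these numbers were 13316 expressed and 2661 undetected genes. The mean level was at least 1000 for 77 genes, 100 to 1000 for 2226, 10 to 100 for 8096 and 1 to 10 for 3226, and the median over expressed genes was 31.2. The RNA was spread over many genes: 1061 genes held 50% of the summed level and 6306 held 90%. Of the 2563 undetected genes, 1217 also had 0 counts in every library of the other groups. None of the undetected genes reached a level of 1 in each 90 min library, 1 did so at 7 days (LCE1F, of the skin barrier, with 54 counts over 5 libraries) and 1 in the knockdown (NPS, the neuropeptide S gene, with 47 counts). Both are named because they were the only such genes.

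Promoters of a few genes at the ends of this range are shown here as examples of the sequence at the start of genes that were high, silent or variable. Each window runs from 250 bases before to 50 bases after an annotated start in RefSeq (build GRCh38.p14), is written 5′ to 3′ on the strand of the gene, and has each CG pair in capitals. TMSB10, the gene with the highest level, was at chr2:84905406-84905705 (plus strand, 35 CG pairs), RUNX2, the osteoblast master regulator, at chr6:45422025-45422324 (plus strand, 39 CG pairs), and NPIPB3, among the most variable genes, at chr16:21425329-21425628 (minus strand, 6 CG pairs). CDKN2A, which encodes the tumour suppressors p16 and ARF and was undetected, was at chr9:21995275-21995574 (minus strand, 28 CG pairs), and MYOG, the muscle regulator myogenin and likewise undetected, at chr1:203085963-203086262 (minus strand, 11 CG pairs). For RUNX2 and CDKN2A the window shown is the richer in CG pairs of 2 starts held for the gene. TMSB10, RUNX2 and NPIPB3 were taken by the rule for named genes, and the other windows after their values were seen.
TMSB10: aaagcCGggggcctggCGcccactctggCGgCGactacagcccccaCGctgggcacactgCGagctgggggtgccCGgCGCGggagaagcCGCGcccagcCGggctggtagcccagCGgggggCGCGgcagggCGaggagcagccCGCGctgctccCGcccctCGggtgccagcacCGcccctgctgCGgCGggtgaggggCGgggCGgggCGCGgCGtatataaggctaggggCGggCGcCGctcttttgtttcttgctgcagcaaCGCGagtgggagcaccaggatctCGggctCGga
RUNX2: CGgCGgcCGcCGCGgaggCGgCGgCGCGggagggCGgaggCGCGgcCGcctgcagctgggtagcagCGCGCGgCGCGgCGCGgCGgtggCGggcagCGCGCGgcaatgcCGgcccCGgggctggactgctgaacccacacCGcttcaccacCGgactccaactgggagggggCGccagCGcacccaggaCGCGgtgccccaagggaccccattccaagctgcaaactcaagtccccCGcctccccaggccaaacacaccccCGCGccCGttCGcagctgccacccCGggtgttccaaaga
NPIPB3: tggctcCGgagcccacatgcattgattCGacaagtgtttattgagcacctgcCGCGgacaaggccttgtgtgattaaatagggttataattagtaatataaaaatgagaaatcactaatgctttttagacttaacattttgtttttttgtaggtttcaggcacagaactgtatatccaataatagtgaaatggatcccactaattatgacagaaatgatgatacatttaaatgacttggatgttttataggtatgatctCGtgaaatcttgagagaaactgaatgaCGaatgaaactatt
CDKN2A: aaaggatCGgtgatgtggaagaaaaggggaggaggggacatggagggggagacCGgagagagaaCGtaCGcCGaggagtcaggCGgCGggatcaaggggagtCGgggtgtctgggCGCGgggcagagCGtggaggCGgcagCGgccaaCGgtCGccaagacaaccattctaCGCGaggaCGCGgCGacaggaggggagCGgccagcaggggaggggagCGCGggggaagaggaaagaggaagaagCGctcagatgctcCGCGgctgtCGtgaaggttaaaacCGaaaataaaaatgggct
MYOG: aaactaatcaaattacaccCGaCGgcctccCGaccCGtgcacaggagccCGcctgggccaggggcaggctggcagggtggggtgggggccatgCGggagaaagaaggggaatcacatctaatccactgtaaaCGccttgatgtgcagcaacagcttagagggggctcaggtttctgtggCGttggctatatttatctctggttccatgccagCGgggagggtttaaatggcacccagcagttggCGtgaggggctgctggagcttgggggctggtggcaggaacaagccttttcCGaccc

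The windows of the undetected CDKN2A and MYOG differed from each other, with 28 and 11 CG pairs. Over all genes matched to these promoter sequences, the median number of CG pairs per 300 bases, taking the richest start of each gene, was 28 for 10263 expressed genes (quartiles 21 and 36), 11 for 3059 genes in between and 4 for 1512 undetected genes (quartiles 2 and 11). The CDKN2A window thus lay at the median of expressed genes and above the upper quartile of undetected ones, whereas the MYOG window lay at that upper quartile. Genes at a level of at least 100 had a median of 29. Genes that varied between the untreated libraries had a median of 28 (quartiles 20 and 36), as expressed genes did, so the CG-poor window of NPIPB3 does not stand for them.

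The most abundant transcripts were those of the cytoskeleton, of ribosomes and of glycolysis. TMSB10, which encodes the actin-sequestering thymosin beta 10, led with levels of 8821, 8109, 8673, 11029 and 9563 in replicates 1 to 5, a mean of 9239 ± 1127 (SD, n = 5). ACTB, the beta actin gene, followed at 7579 ± 429 and GAPDH, of glycolysis, at 5794 ± 987. Ferritin light chain (FTL) stood at 5256 ± 1080, galectin 1 (LGALS1) at 4444 ± 496 and TIMP1, an inhibitor of matrix metalloproteases, at 3838 ± 322. The 25 highest genes held 8.40% of the summed level, and the lowest of them, RPLP1 of the ribosome, was at a level of 1858. They also included the tubulin gene TUBB, the chaperone gene HSP90AB1, the glycolytic genes ENO1 and PKM, the intermediate filament gene VIM and the metallothionein gene MT2A at 2556 ± 718. Of the 77 genes at a level of at least 1000, 22 encode ribosomal proteins. All 85 ribosomal protein genes together took between 4.99% (replicate 5) and 6.93% (replicate 4) of the summed level. One of the 25, ENSG00000251357, has exons that overlap those of MIF, and NME1-NME2 is a readthrough of 2 genes, so their counts cannot be separated from those of their neighbours.

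The top genes were not equally steady. ACTG1, of gamma actin, was at 3344, 3373, 3300, 3389 and 3419 in replicates 1 to 5, which is a spread of 45.3 (SD) about a mean of 3365. S100A11, which encodes a calcium-binding protein, was at 1415, 1390, 1425, 1613 and 3817, so that its place in the top 25 rests on replicate 5. RPS12, of the small ribosomal subunit, went the other way, at 3733, 3263, 3248, 4361 and 1156. On these 2 genes replicates 1 to 4 were closer to each other than any of them was to replicate 5.

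Markers of the osteoblast lineage were present in part. Of 20 osteoblast markers, 9 were expressed (45%, against 65.0% of all genes) and 2 had 0 counts. SPARC, the matrix protein osteonectin, was at 1916, 1837, 1877, 1769 and 1767, close together in all 5 libraries. COL1A1, the alpha 1 chain of type I collagen, was at 803, 819, 883, 684 and 982. Its partner COL1A2 drew 65 counts over all 5 libraries, a mean level of 0.153, where COL1A1 drew 313721. TNFRSF11B, the decoy receptor osteoprotegerin, had a level of 134 ± 11.7, SPP1 (osteopontin) 21.7 ± 5.04, and the transcription factor gene MSX2 12.3 ± 1.35. RUNX2 was at 43.6, 58.6, 50.3, 39 and 102, and ALPL, of bone alkaline phosphatase, at 28.9, 26.3, 29.3, 33.7 and 65.2. For both genes replicates 1 to 4 formed a group and replicate 5 lay above it, so that the mean of RUNX2 was 58.8 ± 25.4 with replicate 5 and 47.9 without it. SP7 (osterix), which acts after RUNX2 in bone formation, drew 5 counts in all, IBSP 1 and DLX5 0. The label of an osteosarcoma line was thus met by RUNX2, SPARC, COL1A1 and ALPL, but not by SP7, DLX5, IBSP or COL1A2.

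The mesenchymal list was the best filled of the lineage lists, with 14 of 17 genes expressed (82.4%, against 65.0% of all genes). VIM, the mesenchymal intermediate filament, had a level of 1999 ± 269, and FN1 (fibronectin) of 1125 ± 376, from 594 in replicate 4 to 1597 in replicate 5. Surface and adhesion genes followed, with THY1 at 131 ± 39.9, CD44 at 104 ± 19.7, N-cadherin (CDH2) at 80.5 ± 8.42 and PDGFRB at 56.8 ± 8.16. Among the transcription factors that repress epithelial genes, SNAI1 stood at 25.8, 25.6, 26.5, 22.4 and 67.2, a mean of 33.5 that was 25.1 without replicate 5. SNAI2 was at 30.4 ± 12.1 and ZEB1 at 28.2 ± 9.23, or 25.2 and 24.5 without it. TWIST1, a regulator of the same kind, had 0 counts in all 5 libraries, which allows a level of up to 0.0381 (3 counts over the group, counting error only), and NT5E, the surface enzyme CD73, had 26 counts.

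Of 16 epithelial markers, 6 were expressed (37.5%, against 65.0% of all genes), 9 lay between and 1 had 0 counts. KRT18 and KRT8, which encode the paired keratins of simple epithelia, were at 631, 668, 666, 791 and 456 and at 284, 265, 293, 344 and 212 in replicates 1 to 5. Both were lowest in replicate 5. Exons of these neighbouring genes overlap on opposite strands in GENCODE 29. The paper describes the libraries as stranded, but whether counting used strand is not given in the sources used here, so reads of the overlap may be shared. Of the other epithelial markers, CLDN4 was at 11.4 ± 1.42, KRT14 at 8.71 ± 1.09, EPCAM at 5.56 ± 0.955 and E-cadherin (CDH1) at 1.23 ± 0.349. Of the regulators of epithelial identity, GRHL2 had 1 count over the 5 libraries, OVOL1 0, ESRP1 26 and ELF3 32.

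The cartilage and muscle lists were filled to different degrees. Of 10 cartilage genes 6 were expressed (60%), of 9 skeletal muscle genes 2 (22.2%) and of 6 smooth muscle genes 4 (66.7%). The share among all genes was 65.0%. SOX9, the master regulator of cartilage, was at 169, 193, 175, 142 and 364, again with replicate 5 above the rest. COL11A1, a collagen of cartilage fibrils, was at 75.6 ± 11.4 and the matrix gene MATN3 at 30.7 ± 1.63, whereas COL2A1, the main cartilage collagen, drew 32 counts over all 5 libraries. Of the skeletal muscle list, PAX7, a factor of muscle stem cells, was at 11.6, 13.1, 11.7, 9.24 and 14, while MYOG had 0 counts (a level of up to 0.0507) and MYF5 1 and MYF6 1. MYOD1 was at a mean level of 0.127. The smooth muscle genes TAGLN (96.3 ± 12.7), CNN1 (70.1 ± 20.1), SMTN (61.4 ± 4.4) and ACTA2 (18.4 ± 1.1) were expressed, and their activator MYOCD was at 0.729.

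Of markers of more distant lineages, 7 of 11 neural genes were expressed, against 65.0% of all genes. The counts for the other lists were 2 of 11 blood and immune, 2 of 7 endothelial, 3 of 8 hepatocyte, 1 of 5 melanocyte, 2 of 7 adipocyte and 3 of 8 pluripotency genes. Of 11 blood and immune markers, CD34 was expressed at 12.9 ± 2.99 and ITGAM at 1.59 ± 0.402, and PTPRC (CD45) was at 0.51. Of 7 endothelial markers in the table, TEK was at 7.31 ± 1.24 and ERG at 4.72 ± 1.0, and CLDN5 had 0 counts. TUBB3, NES and SNAP25 of the neural list were at 89 ± 12, 44.8 ± 7.68 and 15.5 ± 0.996, but NEUROD1 and SOX10 had 0 counts. In the hepatocyte list, SERPINA1 (alpha 1 antitrypsin) was at 115, 138, 113, 117 and 157, while ALB (albumin) drew 1 count and TTR none. The melanocyte regulator MITF was at 10.2 ± 2.96 and its pigment target TYR at 0 counts, and PPARG, of fat cells, at 13.3 ± 1.21 with ADIPOQ at 0. In the pluripotency list LIN28B was at 15.8 ± 2.63, SOX2 at 8.55 ± 2.05 and SALL4 at 7.94 ± 0.959, whereas POU5F1 and ZFP42 had 0 counts. In each of these lists at least 1 marker was expressed and at least 1 had 0 counts. The plot of lineage markers shows these lists on one scale.

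**Figure D1:**
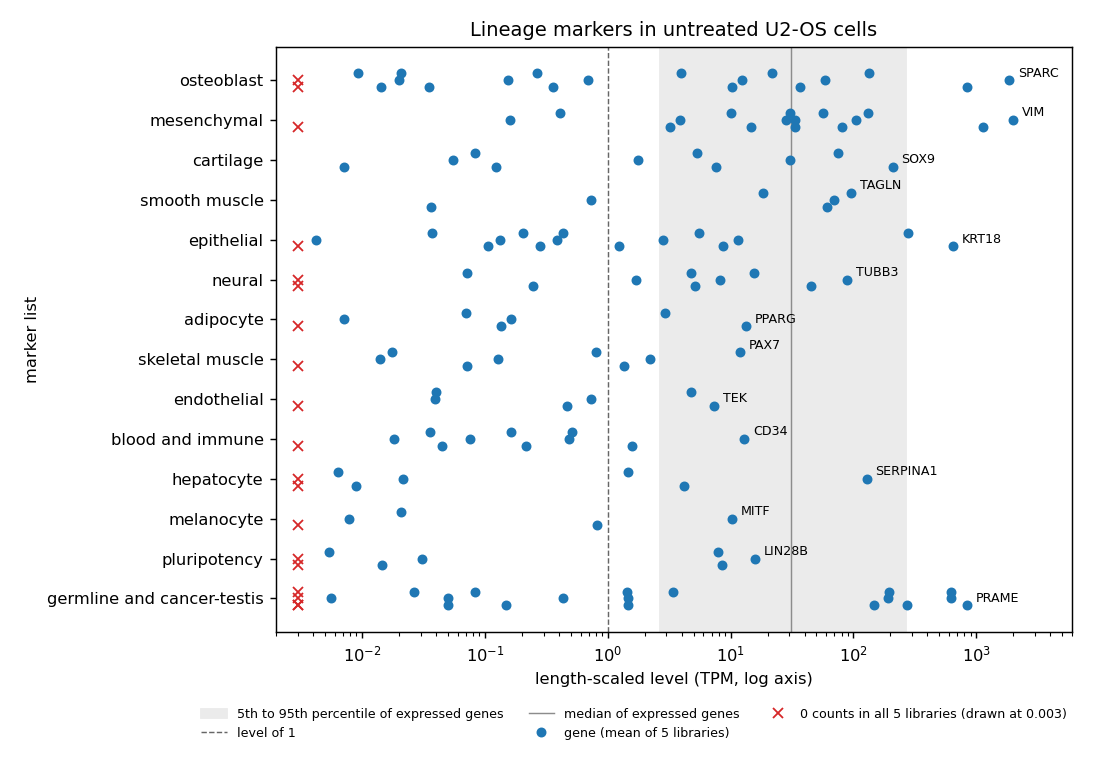
Mean length-scaled level (TPM, log axis) of each marker in the 5 untreated libraries, by lineage list, with the shaded band covering the middle 90% of expressed genes around their median of 31.2 and crosses marking genes with 0 counts. The mesenchymal and osteoblast lists reach levels of 1999 (VIM) and 1833 (SPARC), while most blood, endothelial and pluripotency markers lie below a level of 1.

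Some genes normally active in the germ line were expressed. Of 22 germline and cancer-testis genes, 9 were expressed (40.9%, against 65.0% of all genes), 7 of them at a level of at least 10. Another 9 lay between and 4 had 0 counts. PRAME, a tumour antigen that represses retinoic acid receptor signalling, was at 915, 874, 903, 909 and 573 in replicates 1 to 5. MAGEA4 was at 709.9, 683, 665, 707 and 367. Both were lower in replicate 5 than in each of the other 4 libraries, in which they were steady. PAGE2 was at 624 ± 66.9, MAGEA1 at 272 ± 46.7, MAGEA6 at 196 ± 34.2, MAGEA12 at 191 ± 36.4 and MAGEC1 at 148 ± 35.5. MAGEA3, a near-identical copy of MAGEA6, was at 3.38 ± 0.832, and the split between such copies depends on how shared reads were counted, so these values are uncertain. Germ cell genes proper were low, with 0 counts for DAZL and 4, 14 and 1 counts for DDX4, SYCP3 and BRDT. SSX2, XAGE2 and LUZP4 also had 0 counts.

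Telomerase was near the floor. TERT, its catalytic subunit, drew 5 counts over all 5 libraries, close to the 3 counts used as a floor, while DKC1, which stabilises the telomerase RNA and other small RNAs, was at 159.9 ± 13. ATRX and DAXX, which encode the chaperone pair that deposits histone H3.3 at telomeres and is often lost in tumours that use recombination there, were at 71.9, 82.8, 73.1, 50.5 and 97.3 and at 103, 99.7, 104, 95.7 and 111. These are RNA levels from counts summed over the whole gene, and they do not show whether a transcript is intact. The shelterin genes, which cap chromosome ends, were all expressed, from TERF2IP at 76.8 ± 11.2 and TINF2 at 49.9 ± 2.03 to POT1 at 15.8 ± 0.985 and TERF1 at 14.7 ± 0.906.

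Of 23 tumour suppressor genes, 22 were expressed (95.7%, against 65.0% of all genes). CDKN2A was the exception with 0 counts in all 5 libraries (a level of up to 0.0176). It drew 1 count over the 5 libraries at 90 min, 5 at 7 days and 0 in the knockdown. Its neighbours on 9p21 were transcribed. CDKN2B, the p15 gene next to it, was at 14.4, 14.6, 14.2, 12.6 and 16.8, MTAP, a salvage enzyme gene often deleted along with CDKN2A, at 21.6, 24.9, 24.3, 21.1 and 24.6 (a mean of 23.3, or 13.2 with the GENCODE 29 exon length) and KLHL9 at 45.2 ± 7.06. Of the interferon genes of that region, IFNA1, IFNB1 and IFNW1 had 0 counts and IFNE, an epithelial interferon, was at a mean level of 0.758. RB1, the gatekeeper of S phase, was at 44.5, 47.9, 47.3, 32.8 and 58 and NF2 at 163 ± 10.7.

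All 26 oncogenes and survival genes of the list were expressed (against 65.0% of all genes), 23 at a level of at least 10. The highest were the survival gene MCL1 (324 ± 43.4), the G1 cyclin gene CCND1 (299 ± 28.2) and its kinase gene CDK4 (295 ± 46.5). MYC was at 91.6, 125, 107, 102 and 152, and MDM2, which encodes the ubiquitin ligase of p53, at 106, 115, 109, 93.1 and 107. Proliferation genes were all 25 expressed at a level of at least 10, among them CCNB1 of mitosis (730.4 ± 157), the replication clamp gene PCNA (581 ± 63.9) and TOP2A (584 ± 74.2). MKI67 was less steady, at 213, 262, 268, 131 and 576, so that its level in replicate 5 was above and in replicate 4 below all the others.

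Of 39 HOX genes in 4 clusters, 30 were expressed (76.9%, against 65.0% of all genes) and none had 0 counts, with 22 at a mean level of at least 10. The HOXB cluster held the highest, HOXB9 at 126, 172, 156, 134 and 219.6 and HOXB7 at 101, 85.6, 92.2, 112 and 112, and HOXC9, HOXC13 and HOXC10 followed at 43.9 ± 3.54, 42.7 ± 3.38 and 35.5 ± 5.25. HOXB13, the most posterior gene of its cluster, was at 25.6 ± 3.01. Under a mean level of 1 were HOXB1 (5 counts over 5 libraries) and HOXB2, HOXC12 (10 counts), and HOXD3, HOXD4, HOXD12 (23 counts) and HOXD13 (16 counts). In the HOXD cluster, HOXD8 to HOXD11 were at means of 12.2, 12.2, 21.9 and 16.1 between these low neighbours. HOXA genes had levels up to 23.4 (HOXA9). HOXA7 was at 15.1, 15.7, 16.7, 15.4 and 37.4 and HOXC6 at 28.3, 26.3, 28.9, 26.4 and 52.1, so that replicate 5 was the highest for each while replicates 1 to 4 were close together. Exons of several HOX genes overlap, so that their reads may be shared.

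**Figure D2:**
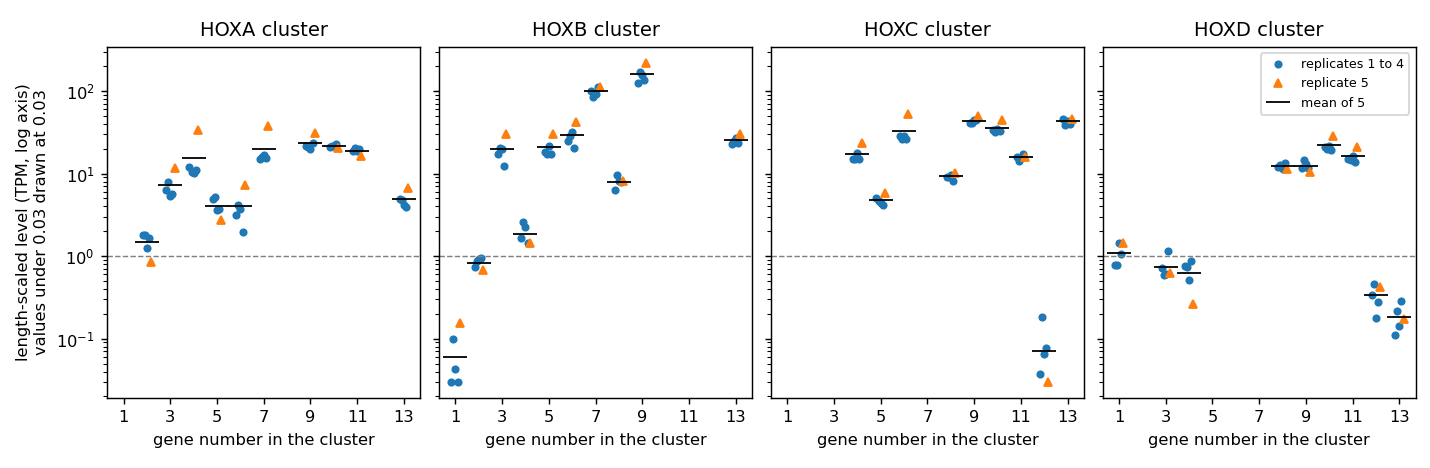
Length-scaled level (TPM, log axis) of HOX genes in each of the 5 untreated libraries, by cluster and in gene order, with replicate 5 drawn as triangles. HOXB9 and HOXB7 are the highest with means of 161 and 101, HOXD8 to HOXD11 stand between low neighbours, and replicate 5 lies above the other 4 libraries for HOXA7 and HOXC6.

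Receptors were the next group. Of 58 receptor tyrosine kinase genes, 36 were expressed (62.1%, near the 65.0% of all genes) and 4 (KIT, FLT3, EPHA3 and MUSK) had 0 counts. AXL, the receptor of GAS6, was the highest at 291, 364, 332, 278 and 426. The ephrin receptor EPHA2 stood at 186 ± 27.6, the Wnt co-receptor PTK7 at 86.7 ± 12.2, the HGF receptor MET at 53.6 ± 11, IGF1R at 45.1 ± 8.34 and FGFR1 at 30.8 ± 4.32. EGFR was at 9.03 ± 2.49 and ERBB2 at 33.7 ± 1.78. DDR2, a receptor for collagen, was at 15.2, 57.4, 26.4, 17 and 18.5, with replicate 2 above the other 4 libraries. Nuclear receptor genes were expressed in 30 of 47 cases (63.8%, also near that share), and 5, among them PGR of the progesterone receptor, had 0 counts. The liver X receptor gene NR1H2 (97.1 ± 13.4) and the clock gene NR1D2 (95.8 ± 10.9) were the highest. The vitamin D receptor VDR, which acts in bone, was at 21.4, 25.9, 26.2, 19 and 37.8 and the glucocorticoid receptor NR3C1 at 38.4, 44.4, 41.1, 29.3 and 38.4. ESR1, of oestrogen receptor alpha, drew 11 counts.

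Signalling programmes are given as counts of expressed genes, to be read against the 65.0% of all genes. All 15 YAP target genes were expressed, with CTGF at 441 ± 54.3 and CYR61 at 373 ± 13.4. Of 22 p53 target genes, 21 were expressed, and CDKN1A, the p21 gene, was at 333, 319, 329, 314 and 272. Of 19 immediate early genes, 16 were expressed, with JUN at 141 ± 4.89 and EGR1 at 154, 178, 150.4, 118 and 409. The NF-κB feedback list held 14 expressed genes of 20, and IL6, a target of NF-κB that is secreted by senescent cells, was at 0.227, 0.179, 0.396, 0.518 and 1.07, below a level of 1 in 4 of 5 libraries. Of the cholesterol synthesis list 18 of 19 were expressed, of hypoxia and glycolysis genes 19 of 20, of heat shock genes 13 of 14, of matrix genes 20 of 22 and of interferon-stimulated genes 14 of 20. Metallothioneins, which bind metals, were an exception: 3 of 11 were expressed, MT2A, MT1E (373 ± 59.4) and MT1X (30 ± 4.7), and 4 had 0 counts.

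The spread between untreated libraries was larger than that in any other group. For each gene with a mean of at least 50 counts, the CV of its CPM over the replicates of a group was taken after removing the part that counting alone gives, and a gene was called variable where this excess CV was at least 0.2. Of 13002 genes, 3274 (25.2%) were variable among the 5 untreated libraries, and 217 had an excess CV of at least 0.5. The other groups, with 5 libraries each, held 178 of 13061 (90 min), 44 of 13220 (7 days) and 33 of 12958 variable genes (knockdown). The median excess CV was 0.135 in untreated cells and 0.0386, 0.0242 and 0.0311 in those groups. Without replicate 5, 987 of 13066 genes (7.55%) were variable, with a median of 0.0851, which is still above each of the other groups.

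The same difference was seen per library, in a comparison that was chosen after seeing the data. The distance of a library to its group was taken as the median over genes of the absolute log2 difference from the other replicates, and it was 0.0924, 0.114, 0.0745, 0.202 and 0.290 in untreated replicates 1 to 5, a mean of 0.154 ± 0.0903 (SD, n = 5). It was 0.0597 ± 0.0185 at 90 min, 0.0485 ± 0.00375 at 7 days and 0.0556 ± 0.0123 in the knockdown (SD, n = 5 each). With replicate 5 left out and distances taken anew, the untreated mean was 0.125. The distances are given as a description with no test, since each is taken to the same other libraries. Untreated and 90 min ranges overlapped, and the other 2 groups lay below every untreated library.

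**Figure D3:**
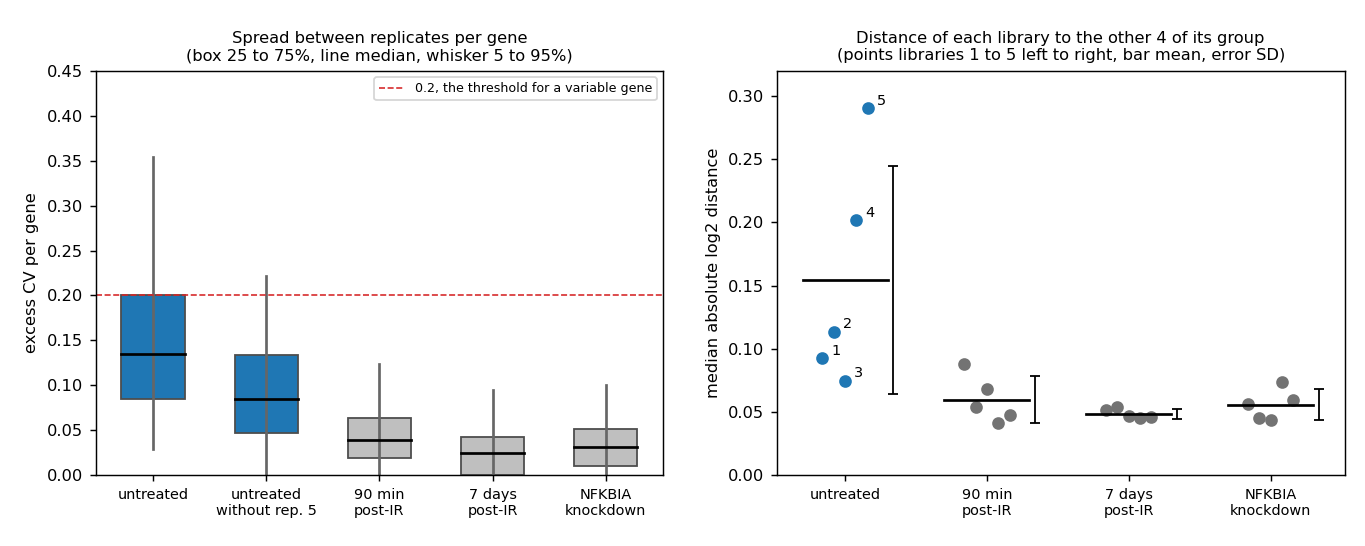
Left, excess CV per gene in each group (box 25 to 75%, line median, whiskers 5 to 95%), with the untreated group also drawn without replicate 5 and the dashed line at 0.2. Right, median absolute log2 distance of each library to the other replicates of its group. The untreated median of 0.135 is the highest, and untreated replicates 5 and 4 lie farthest from their group at 0.290 and 0.202.

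Replicate 5 gave most of this spread. It was the library farthest from the others for 2414 of the 3274 variable genes, replicate 4 for 679, replicate 2 for 152, and replicates 1 and 3 for 18 and 11. Replicate 5 was at least 2-fold above all other untreated libraries for 273 genes and at least 2-fold below them for 92, against 13 and 2 genes for replicate 2, 1 and 20 for replicate 4, and at most 1 for the others. The genes with the largest excess CV show its size. NPIPB5, of a nuclear pore-associated family with near-identical copies on chromosome 16, had CPM values of 7.38, 8.24, 8.5, 6.2 and 83.7, with an excess CV of 1.49 with replicate 5 and 0.122 without it. POLR2A, of the largest subunit of RNA polymerase II, had 170.3, 185, 204, 129 and 777 CPM. IGF2, the fetal growth factor gene, had 19.2, 22, 21.9, 18.9 and 127 CPM, and the readthrough INS-IGF2, which shares its exons, moved with it. ATN1, a transcriptional co-repressor gene, had 157, 167, 174, 139 and 693 CPM, and PRAF2, of vesicle traffic, 63.3, 62.5, 63.7, 72.9 and 348 CPM. In each of these genes replicates 1 to 4 lay together and replicate 5 was several times higher. Of the 25 genes with the largest excess CV, 22 were highest in replicate 5 and 3, INHBE, FUT1 and ALDH1L2, in replicate 2.

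Features of the genes moved with these libraries. In replicate 5, the deviation of a gene from its median over the 5 untreated libraries rose with the share of C and A bases in its coding transcript (r = 0.46 across 12626 genes, which are not independent). The median log2 deviation was −0.21 in the lowest 20% of genes by that share and 0.27 in the highest 20%. In the libraries of the other groups this r lay between −0.12 and 0.12. In replicate 4, the deviation fell with gene length (r = −0.55 across 13002 genes), from a median of 0.22 in the shortest 20% of genes (up to 2821 bases) to −0.22 in the longest 20% (from 7887 bases), and in the other groups that r lay between −0.40 and 0.32. The 273 genes that were at least 2-fold higher in replicate 5 had a median log2 difference from untreated replicates 1 to 4 of 1.36 in replicate 5 and of −0.05, −0.03 and −0.03 in the 3 libraries at 90 min from the same lane. The height of replicate 5 for those 273 genes follows from how they were picked. What part lane, base composition or length had in these differences was not tested.

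The median of some gene lists was shifted in single libraries. In replicate 5, the median log2 deviation from the median untreated library was 0.56 for the mesenchymal list (13 of 14 genes above that library), 0.53 for cartilage (5 of 6), 0.51 for osteoblast (7 of 8) and 0.42 for HOX genes (22 of 29), where all measured genes had a median of 0 and 5795 of 13002 were above. It was −0.42 for germline and cancer-testis genes, of which 3 of 8 were above. In replicate 4, ribosomal protein genes were up by a median of 0.42, with 26 of 26 above the median library (6150 of 13002 among all genes), and matrix genes were at −0.30. Replicate 2 had cholesterol synthesis genes at −0.27, with 0 of 18 above the median library (4983 of 13002 among all genes). Of the genes with a mean of at least 50 counts, 12 of 29 HOX genes were variable over all 5 libraries and 0 of 29 without replicate 5, and for osteoblast markers the counts were 4 of 8 and 0 of 8 (25.2% and 7.55% of all genes).

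**Figure D4:**
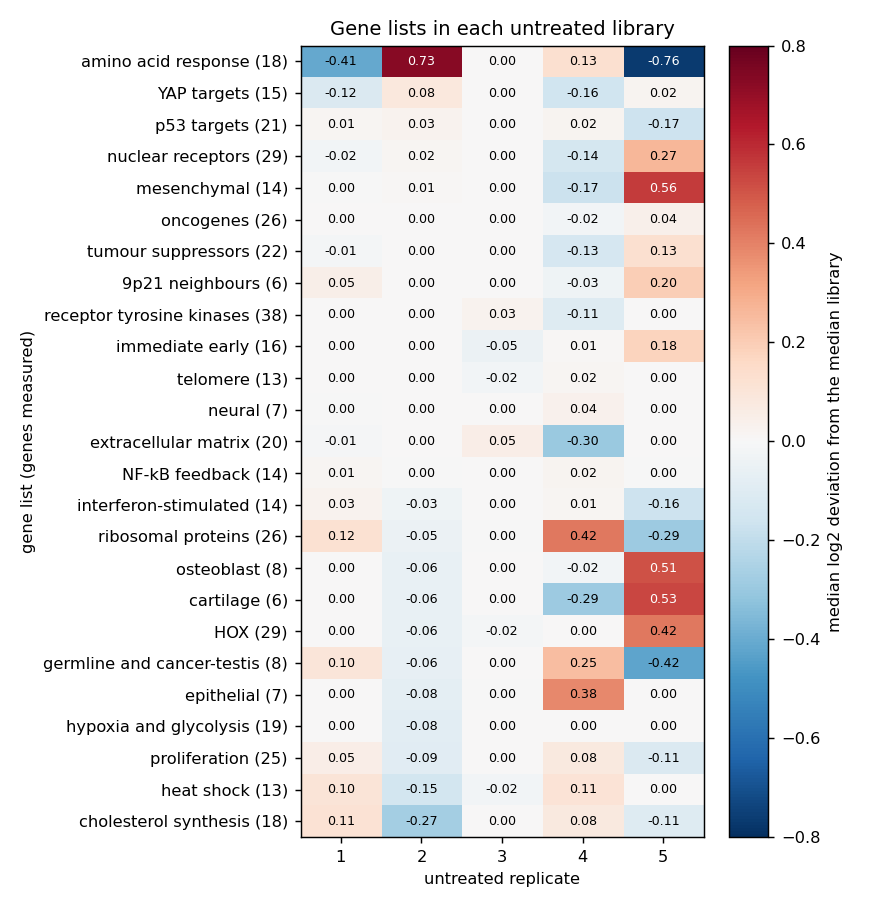
Median log2 deviation of the genes of each list from the median of the 5 untreated libraries, by replicate, with the number of measured genes in brackets. The amino acid response list has the widest range, from 0.73 in replicate 2 to −0.76 in replicate 5, and the mesenchymal list is at 0.56 in replicate 5.

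Genes of the amino acid response also differed among replicates 1 to 4, as did those of some other lists, such as the 3 metallothioneins, all of which were variable with and without replicate 5. These genes are induced through the transcription factor ATF4 when amino acids run short or the integrated stress response is on. All 18 genes of the list with a mean of at least 50 counts were variable (25.2% of all genes), with a median excess CV of 0.433. Without replicate 5, 14 of 18 remained so (7.55% of all genes). The lists were chosen with earlier results of these data known, so these counts are a description only. The list's median log2 deviation was −0.41, 0.73, 0, 0.13 and −0.76 in replicates 1 to 5, and 17 of 18 genes were above the median library in replicate 2. ASNS, which encodes asparagine synthetase, was at levels of 73.8, 385, 123, 130.3 and 59.6. CHAC1, of glutathione breakdown, was at 14, 81.6, 48.8, 47.6 and 13 and PSAT1, of serine synthesis, at 92.8, 341, 157, 142 and 49.8. Replicate 2 was the highest for each of these genes, and replicates 5 and 1 were the lowest. The mitochondrial folate gene ALDH1L2 was at 5.0, 37.1, 12, 6.93 and 8.79, the cystine transporter gene SLC7A11 at 23.5, 107, 52, 33.2 and 27 and the mTOR inhibitor gene DDIT4 at 96.4, 402, 182, 182 and 57. ATF4 itself ranged less widely, at 707, 1074, 870.5, 983 and 626. INHBE, a stress-induced activin subunit gene outside that list, had 0.27, 10.1, 1.97, 2.04 and 0.482 CPM. In the other groups ASNS was at a level of 151 ± 111 (SD, n = 5) at 90 min, 66.2 ± 1.03 at 7 days and 177 ± 14.3 in the knockdown.

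**Figure D5:**
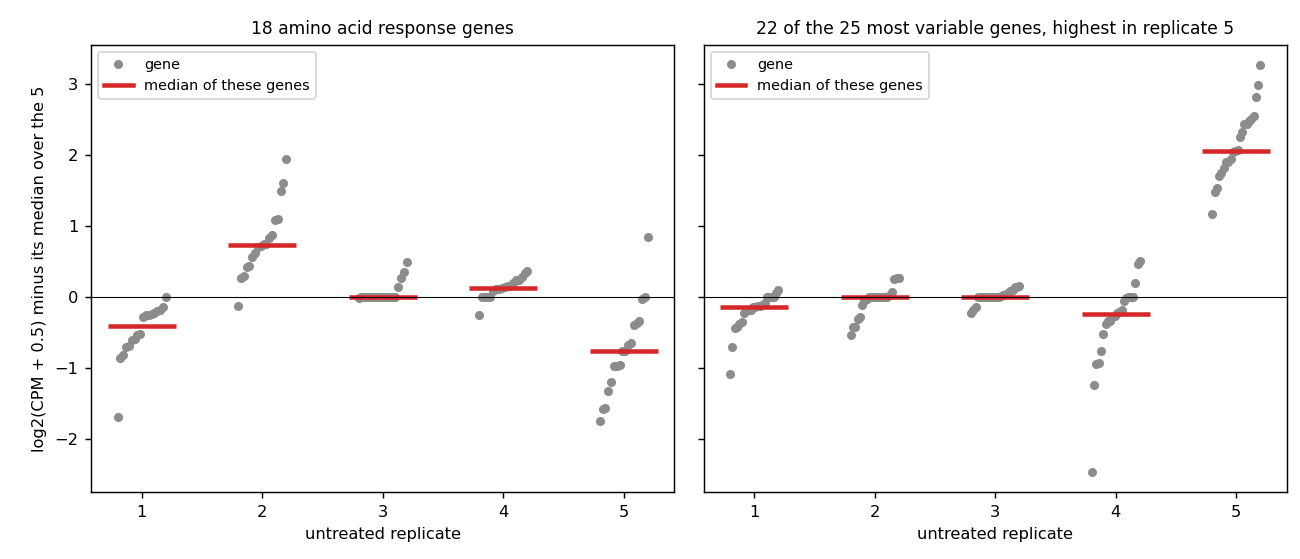
Difference of each gene in each untreated library from its median over the 5 libraries, in log2(CPM + 0.5), for the 18 amino acid response genes (left) and for those 22 of the 25 most variable genes that were highest in replicate 5 (right), with red bars for medians. The amino acid genes have a median of 0.73 in replicate 2 and −0.76 in replicate 5, and the height of replicate 5 on the right follows from how those genes were picked.

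Sequences at the starts of these genes were searched for the core of the composite element that ATF4 binds with a C/EBP partner, TGATGNAA on either strand (TTNCATCA read from the other side). It was present in 3 of the 15 list genes with promoter sequence, which were ASNS, CHAC1 and SLC3A2 (20.0%), and in 1217 of 27305 genes of the whole promoter table (4.46%). The 15 genes have 25 promoters and the 27305 genes 35116, of which 3.62% held it, so the shares per gene are not alike. The list is made of genes induced through ATF4, so these matches are examples and no test of enrichment. A match in these letters is not a binding site, and the same search says nothing of sites outside the window. Windows of ASNS and CHAC1 are shown with the element in capitals, ASNS from chr7:97872359-97872658 (minus strand), where it begins 68 bases before the start, and CHAC1 from chr15:40953221-40953520 (plus strand), where it begins 209 bases before the start.
ASNS: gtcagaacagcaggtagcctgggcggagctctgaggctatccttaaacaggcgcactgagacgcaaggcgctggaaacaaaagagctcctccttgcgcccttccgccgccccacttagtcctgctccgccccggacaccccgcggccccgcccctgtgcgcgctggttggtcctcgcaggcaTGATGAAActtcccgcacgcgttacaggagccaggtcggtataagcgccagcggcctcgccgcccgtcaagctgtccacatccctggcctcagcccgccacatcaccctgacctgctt
CHAC1: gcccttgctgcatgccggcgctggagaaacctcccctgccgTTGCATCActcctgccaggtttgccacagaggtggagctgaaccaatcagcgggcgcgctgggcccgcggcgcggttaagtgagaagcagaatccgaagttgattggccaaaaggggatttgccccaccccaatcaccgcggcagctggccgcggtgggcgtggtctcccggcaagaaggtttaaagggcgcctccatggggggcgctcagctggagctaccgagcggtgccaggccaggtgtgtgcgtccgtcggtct

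The last question was how far the baseline identity genes differed in the other groups, each of which was compared with the same 5 untreated libraries by edgeR's quasi-likelihood test over 14992 genes (Benjamini-Hochberg adjusted p under 0.05 and a log2 fold change over 0.5 in size). That fit shares 1 estimate of the spread per gene among the groups. The spread was largest in untreated cells, so these p-values may be too small. At 90 min, 2.08% of all genes were called higher and 1.57% lower (3.66% in all), and 2.17% and 1.11% without replicate 5 (3.28% in all). The balance depended on the fit, with 312 genes higher and 236 lower here, 286 and 94 where the 2 groups alone were fitted and 284 and 336 without untreated replicate 4. No gene of the epithelial, cartilage, telomere or germline lists was called there (with sequencing lane as a factor, where 11.9% of all genes were called higher and 13.6% lower, 25.5% in all, 3 cartilage genes were called lower, 2 telomere genes higher and 2 lower, and 3 germline genes higher and 1 lower), and of 35 HOX genes tested 6 were called lower and none higher. Without replicate 5, 2 of these HOX genes, HOXA5 and HOXA6, were called lower, and with lane as a factor 17 were, where 13.6% of all genes were. HOXA7, for example, differed by a log2 fold change of −0.62 with an SE of 0.19 (adjusted p = 0.0255), and by −0.29 without replicate 5. Of 3 pluripotency markers tested 2 were called lower and none higher, and the counts were the same without replicate 5 and with lane as a factor. Of 11 osteoblast markers tested 2 were called lower and none higher. TNFRSF11B, which encodes the decoy receptor osteoprotegerin, fell by 0.8 on the log2 scale (adjusted p = 5.92e-07), by 0.77 without replicate 5 and by 0.92 with lane as a factor. RUNX2 had a log2 fold change of −0.56, which was −0.26 without replicate 5, under the fold threshold, and −1.37 with lane as a factor.

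At 7 days, where 16.7% of all genes were called higher and 14.4% lower (31.1% in all, and 30.6% without replicate 5), genes of the lineage lists were called in numbers that differed from list to list. Of 6 cartilage genes tested, 5 fell and none rose (4 fell without replicate 5 and 6 with lane as a factor). Of 11 osteoblast markers tested, 4 rose and 1 fell. SPP1 rose by 2.64 and PHEX by 2.05 on the log2 scale, and by 2.21 and 2.52 with lane as a factor. MSX2 rose by 0.55, which was 0.32 with lane as a factor, under the fold threshold. ALPL rose from a level of 36.7 ± 16.2 to 65.3 ± 8.16, a log2 fold change of 0.77 (adjusted p = 0.000909) that was 1.06 without replicate 5. SPARC fell by 0.75 on the log2 scale (adjusted p = 2.32e-11). Of 11 epithelial markers tested, 3 rose and 6 fell, and of 16 mesenchymal markers 3 rose and 4 fell. Of 4 blood and immune markers tested 1 rose and 1 fell (3 and 1 of 5 without replicate 5), of 3 pluripotency markers 1 fell and of 3 hepatocyte markers 2 rose. Among them SERPINA1 rose by 1.1 to a level of 286, while SOX2 and CD34 fell by 1.87 and 1.5. Of 7 genes of the 9p21 list tested, 4 rose and 1 fell. CDKN2B rose by 0.53 and MTAP by 0.63. The amino acid list had 1 gene called higher and 9 lower of 19, and 1 and 14 without replicate 5 (16.4% and 14.2% of all genes). With sequencing lane as a factor, which rests on replicate 5 as the only untreated library to share a lane with another group, ALPL (log2 fold change −0.11, adjusted p = 0.694) and CDKN2B (0.198) were not called at 7 days. In that fit 21.8% of all genes were called higher and 19.5% lower (41.3% in all), and the balance of the lists also moved, to 2 higher and 4 lower for osteoblast, 1 and 7 for mesenchymal, 2 and 4 for epithelial and 4 and 2 for amino acid genes, the last with a median log2 fold change of 0.75 in place of −0.46.

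In the knockdown, where 5.18% of all genes were called higher and 7.53% lower (12.7% in all, and 11.9% without replicate 5), 3 of 11 osteoblast markers fell and none rose. Those shares stand for 777 genes higher and 1129 lower, a split that became 971 and 924 when libraries were scaled by their total counts alone. COL1A1 fell by 1.68 on the log2 scale (SE 0.07, adjusted p = 4.45e-13), from a level of 834 ± 109.6 to 273 ± 14. ALPL fell by 1.96 (adjusted p = 1.47e-07), to a level of 9.88 ± 1.0. COL1A2 stayed near the floor, with 39 counts over 5 libraries. Of 11 epithelial markers tested 1 rose and 4 fell. CDH1 fell by 2.01 and the keratin genes KRT5, KRT14 and KRT8 by 2.85, 3.27 and 0.71, CLDN4 rose by 1.06, and the keratin genes KRT7, KRT18 and KRT19 were not called. With lane as a factor, a fit that links these groups through the 90 min and 7 day libraries, COL1A1 (log2 fold change −1.9, adjusted p = 2.86e-07) and ALPL (−3.13, adjusted p = 1.08e-06) were called lower as well, while KRT5 (adjusted p = 0.0604), KRT8 (0.471) and CLDN4 (0.0731) were not called. Of 16 mesenchymal markers 4 were called lower and none higher with replicate 5, and 1 lower and 1 higher without it (6.89% and 5.03% of all genes). Of 12 germline and cancer-testis genes tested none was called in the knockdown, 1, PRAME, was called lower without replicate 5, and 4 were called higher and 1 lower with lane as a factor. In that last fit, where 13.3% of all genes were called higher and 14% lower (27.3% in all), 6 osteoblast and 7 mesenchymal markers were called lower and none higher. Untreated and knockdown libraries shared no lane (2 and 3 against 5 and 6). In the knockdown, the shRNA, its vector, clonal selection and doxycycline cannot be told apart from the depletion of NFKBIA.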

How the data were processed

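RNA-seq was performed on 20 U2-OS libraries, 5 per group, grouped by their labels. The authors deposited 1 table of raw read counts per gene with a width in bases for each gene. The submitters' processing notes name bcl2fastq, Trimmomatic, STAR 2.4.2a and hg19, and the counting tool, annotation and strand setting are not given in the sources used here. Members and gene lists were chosen with earlier results of these data known. From the deposited counts, length-scaled levels (TPM) were computed with the width, which lay within 10% of the GENCODE 29 exon length for 85.6% of 19498 matched genes. Mitochondrially encoded genes are not analysed here, and 1679 genes had no symbol in the table, of which 473 were named from a table of identifiers.

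Excess CV was the CV of TMM-scaled CPM after removal of the Poisson part, in genes with a mean of at least 50 counts. Groups were compared in edgeR 4.0.16 (R 4.3.3) with TMM scaling and filterByExpr (minimum count 10), in 1 quasi-likelihood fit over all 20 libraries without a replicate block. Genes were called at a Benjamini-Hochberg adjusted p under 0.05 and a log2 fold change over 0.5 in size. Both steps were tested on simulated data, the comparison of groups with the same spread in every group, which differs from the data. Floors were set at 3 counts over a group and cover counting error only. Named genes were the 25 with the highest level, the 25 with the largest excess CV, and list genes at a level of at least 10 or whose presence or absence a list turns on. Promoters are from RefSeq (GRCh38.p14), used by symbol or gene identifier only, since the counts were made on hg19. Alternatives were DESeq2 1.42.0, other scalings, filters and thresholds, each replicate left out, sequencing lane as a factor and the replicate block. The distances between libraries, the checks on levels of single genes and the GENCODE 29 exon length were chosen after seeing the data. Same-numbered libraries of different groups did not deviate together, so the numbers were not taken to pair them. Some genes of the lists are counted but not reported singly here.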

Additional observations from a re-analysis of the deposited data

Results flagged for a closer look

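A gene or library was looked at again where its highest or lowest replicate lay far from the other 4, with a gap of more than 0.71 of the whole range (Dixon's 95% value for 5 samples). Chance flags about 1 in 20 groups. Of 45 genes checked among the untreated libraries, 14 had such a library, and in 10 of them it was replicate 5. The 45 include genes named for their large spread, so the 14 cannot be read against 1 in 20. Over 13002 genes, replicate 5 lay apart in 13.6%, replicate 4 in 1.46% and replicate 2 in 0.438%.

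Untreated replicate 5 lay above the rest in the level of S100A11 (3817), ALPL (65.2), SOX9 (364), NPIPB5 (36.3), POLR2A (373), ATN1 (583), PRAF2 (803) and IGF2 (72.9). It lay below the rest for the tumour antigens PRAME (573) and MAGEA4 (367). Untreated replicate 2 lay above the rest in the level of DDR2 (57.4), ASNS (385), ALDH1L2 (37.1) and INHBE (14.5). Outside the untreated group, 90 min replicate 1 had 39546228 counts, more than the other libraries of its group. The cause of these differences was not tested.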

How the results depend on the processing

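Expressed genes numbered 12465 to 13825 under all alternatives tried, and undetected genes rose to 4343 where up to 3 counts in each library were allowed. Variable genes numbered 5615 at an excess CV of 0.15 and 1055 at 0.3, and between 987 and 4170 on leaving out single untreated replicates, the lowest without replicate 5. With a pair of libraries left out together, chosen after seeing the data, they numbered 337 without replicates 4 and 5 and 937 without replicates 2 and 5, and of the amino acid list 11 of 18 genes were variable without replicates 2 and 5, against 14 to 18 with single replicates left out. Sequencing lane as a factor, which is estimated largely through untreated replicate 5, raised the calls at 90 min from 548 to 3820 and in the knockdown from 1906 to 4088. The cause was not tested. With the replicate block the calls were 496 at 90 min, 4628 at 7 days and 1849 in the knockdown. Same-numbered untreated and 90 min libraries correlated between −0.17 and 0.23 in their deviations, and best with their own number in 1 of 5, so the numbers give no pairing. Leaving out each library in turn gave 460 to 689, 4608 to 4888 and 1798 to 2146 calls. All other alternatives tried for these 3 comparisons, DESeq2 among them, stayed within 1.5 times the count. Under the GENCODE 29 exon length (added after seeing the data) the mean level of KRT8 went from 280 to 210.3, of MTAP from 23.3 to 13.2 and of ZBTB20 from 4.27 to 1.14. Leaving out replicate 5 moved NPIPB5 from 9.99 to 3.40 and IGF2 from 24.3 to 12.1, and leaving out replicate 2 moved INHBE from 4.17 to 1.59. Leaving out mitochondrially encoded genes was not run, because the table holds 0 of them.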
